A study of Mus musculus with 24 samples.

Results

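The response of P19 cells to all-trans retinoic acid (ATRA) was compared between a line lacking the retinoic acid receptor gene Rarg and wild-type (WT) cells, each after 10 d. The members of the comparison are all genes in either of 2 tables that the authors deposited, that of the Rarg KO line with ATRA and that of WT cells with ATRA. Both tables have the same reference, a library from WT cells harvested after 2 d in ethanol. Together they hold 730 genes, of 1753 genes found in at least 1 of the 23 tables of the series. A gene was called kept when both tables listed it in the same direction, lost when only the WT table listed it, and gained when only the Rarg KO table did. For kept genes, the difference of the log2 fold changes was taken as Rarg KO minus WT, up- and down-regulated genes apart.

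P19 is a mouse embryonal carcinoma line that forms neurons and other cell types when retinoids are added. Retinoic acid binds nuclear receptors of the RAR family, which sit on DNA as partners of RXR receptors and switch their target genes on when ligand is bound. The family has 3 members, RARα, RARβ and RARγ, encoded by Rara, Rarb and Rarg, and ATRA binds all of them. In the embryo, retinoic acid sets the anterior limits of Hox gene expression, promotes neurogenesis and patterns mesoderm.

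Both groups received ATRA at 1 µM for 4 d and were then kept for 6 d in Neurobasal medium with supplements that lack vitamin A, and RNA was sequenced at day 10. The Rarg KO line was made with CRISPR/Cas9 and a puromycin resistance cassette, and the sources used here do not state whether it is 1 clone. The reference received the ethanol vehicle and no Neurobasal medium, so both tables also carry the effect of time and of the medium. Each condition has 1 library, so that no difference has a replicate check, and all comparisons of the 2 tables are descriptions without a test. No vehicle-treated library of the Rarg KO line was used here, so a difference of the lines at rest and a difference in their response to ATRA cannot be told apart. None of the tables lists Rara, Rarb or Rarg, and the loss of Rarg from its locus on chromosome 15 of mm9, from 102065369 to 102087948, could not be checked. The tables give no counts, and depth is unknown. All listed p-values are the authors' unadjusted values and lie under 0.01. A gene absent from a table may have missed this limit by little, and is called not listed rather than unresponsive.

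The WT table listed 395 genes as up-regulated, which is 22.5% of the 1753 genes, and 151 as down-regulated, or 8.61%. The Rarg KO table listed 375 genes as up, 21.4% of the same genes, and 166 as down, 9.47%. All of them had absolute log2 fold changes over 4, and so passed the threshold of 2 used to call a direction. Of the 395 genes up in WT cells, 250 were kept in the Rarg KO line, or 63.3% (95% Wilson interval 58.4 to 67.9), and 145, or 36.7%, were lost. Another 125 genes were gained, 33.3% of those up in the Rarg KO line (28.8 to 38.3). Among genes down in WT cells, 107 of 151 were kept, or 70.9% (63.2 to 77.5), 44, or 29.1%, were lost, and 59 were gained, 35.5% of those down in the Rarg KO line (28.7 to 43.1). These intervals cover counting error over genes only. No gene was listed in opposite directions.

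The genes kept in both lines had log2 fold changes of similar size in the middle of their range, while individual genes differed by up to 4 units. Over the 250 kept up genes, the median difference was -0.30 with an SD across genes of 1.28. The Rarg KO value was higher for 111 of them, or 44.4%, and lower for 139. The differences ran from -3.16 for Msx3, a homeobox gene of the dorsal neural tube, to 3.42 for Foxd1, a forkhead factor of stromal progenitors. In 125 of the 250, the 2 values lay within 1 unit of each other. Over the 107 kept down genes, the median was -0.06, the SD 1.37, and the range -3.65 to 4.06. Of the kept up genes, 12 were over 2 units higher in the Rarg KO line (4.8%) and 14 over 2 units lower (5.6%), together 10.4%. Of the kept down genes, 5 were over 2 units higher (4.67%) and 9 over 2 units lower (8.41%), together 13.1%. A less negative value counts as higher.

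The precision of single genes was low. A standard error was derived from every log2 fold change with its p-value, and the errors of both tables, combined as if they were independent, had a median of 3.20 for kept up genes and 3.06 for kept down genes. Only Aldh1a2 among the 250 kept up genes, and 5 of the 107 kept down genes, differed by more than 1 combined standard error. Since the reference library is shared, this error is an overestimate for the difference. The statements on gene groups below rest on the number of genes that lie on 1 side, and genes of a group in 1 library are not independent of each other.

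**Figure D1:**
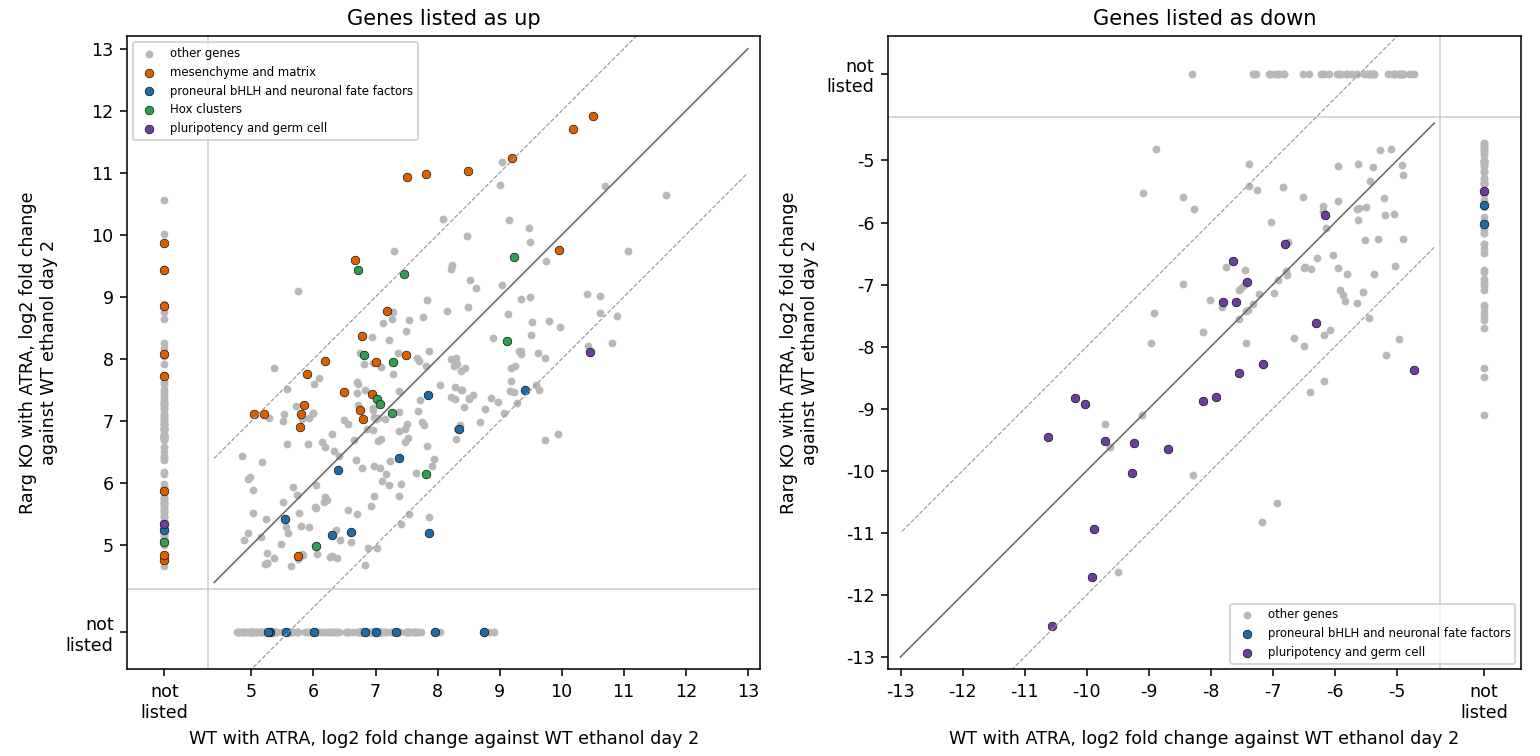
Log2 fold change against WT ethanol day 2 in WT cells with ATRA (horizontal axis) and in the Rarg KO line with ATRA (vertical axis), for genes listed as up (left) and down (right). Each point is a gene in 1 library per line, the solid line marks equal values, the dashed lines mark differences of 2 units, and the strips hold genes that 1 of the tables does not list. Mesenchyme and matrix genes lie above the line in 22 of 24 cases, and genes of the list of proneural and neuronal fate factors below it in 9 of 9.

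Lost and gained genes had weaker evidence than kept ones in the table that listed them. Lost up genes had a median log2 fold change of 6.57 in WT cells, against 7.23 for kept genes, and a median p of 0.00582 against 0.00167. In WT cells, 84 of the 145 lost genes, or 57.9%, had a p of 0.005 or more, close to the limit of the tables, and this held for 51 of the 250 kept genes, or 20.4%. A p under 0.001 was found for 6 lost genes. Of the 125 gained up genes, 13 had a p under 0.001, and their median log2 fold change was 6.51. Among down genes, 0 of the 44 lost genes and 5 of the 59 gained genes had a p under 0.001, against 35 of the 107 kept genes in the WT table. The values at the edge of the tables were 4.77 for Dnm3 and -4.73 for Otx2 in WT cells, and 4.66 for Peg3 and -4.72 for Comtd1 in the Rarg KO line.

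Genes listed in the same direction in WT cells after 10 d of ethanol give the background of time and medium, against the same reference. Of the kept up genes, 42 were listed there, or 16.8%, of the lost 12, or 8.28%, and of the gained 15, or 12%. For down genes the numbers were 35 of the kept, or 32.7%, 6 of the lost and 10 of the gained.

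Genes of mesenchyme and extracellular matrix had higher values in the Rarg KO line. The list of this group held 32 genes found in either table. Of these, 24 were kept, 0 lost and 8 gained, where 63.3% of all up genes of WT cells were kept. The share gained was 25%, below the 33.3% over all up genes of the Rarg KO line. The value was higher in the Rarg KO line for 22 of the 24 kept genes, where the share over all kept up genes was 44.4%. The median difference of the list was 1.47, against -0.30 over all kept up genes, and 6 of its genes were over 2 units higher, of 12 such genes in all.

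Foxd1, on chromosome 13 of mm9 from 99124200 to 99126660, had a log2 fold change of 7.52 in WT cells with ATRA (the authors' p = 0.0039) and 10.94 in the Rarg KO line (p = 6.37e-05). It was also listed in WT cells kept 10 d in ethanol, at 7.11, as were 3 other kept genes of this list, Col12a1 (6.55), Col11a1 (4.89) and Tnc (4.05). Mgp, which encodes a matrix protein that inhibits calcification, had 7.82 and 10.97. Postn encodes periostin, a matrix protein of connective tissue, and had 6.67 and 9.60. The 3 genes with the largest differences of the list were thus each about 3 units apart. Col12a1, a collagen that coats fibrils, had 8.49 in WT cells and 11.04 in the Rarg KO line. The fibril collagen Col3a1, which had one of the highest values of the group in WT cells, had 10.19 and 11.71, and Ccn4, a secreted Wnt target, had 10.50 and 11.92. The latter was the highest value of any up gene in the Rarg KO table.

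The other kept collagens were higher in the Rarg KO line too, with differences from 0.49 for Col14a1 to 1.91 for Col1a1. Of the kept transcription factors of this list, Osr1, a factor of intermediate mesoderm, had 9.19 and 11.24, and Meox1, a factor of somites, had 6.78 and 8.38. The exceptions were Tnc, the gene of tenascin C, with 5.76 in WT cells and 4.83 in the Rarg KO line, and Tbx2, a T-box factor, with 9.95 and 9.75.

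The 8 gained genes of this group included Fmod and Bgn, which encode small proteoglycans that bind collagen. In the Rarg KO table, Fmod had a log2 fold change of 9.86 and Bgn one of 9.43. Gata6, a zinc-finger factor of heart and endoderm, had 8.86, and Tcf21, a factor of epicardium and visceral mesenchyme, had 8.08. Hand2, of heart and limb mesenchyme, had 7.73. Foxc1 had 5.88, and Dcn and Col5a1 were near the edge of the table at 4.84 and 4.77. WT cells with ATRA had none of them in their day 10 table, though Gata6 was listed in WT cells after 2 d of ATRA, at 6.62, and after 4 d, at 6.29. These gains were not particular to the Rarg KO line. All 8 genes were also listed in the Rarb KO line with ATRA, with 11.69 for Bgn, 10.32 for Fmod and 9.32 for Hand2. In the Rara KO line with ATRA, Bgn (7.27), Gata6 (7.46), Hand2 (7.47), Foxc1, Dcn and Col5a1 were listed, while Fmod was in none of the tables of that line.

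**Figure D2:**
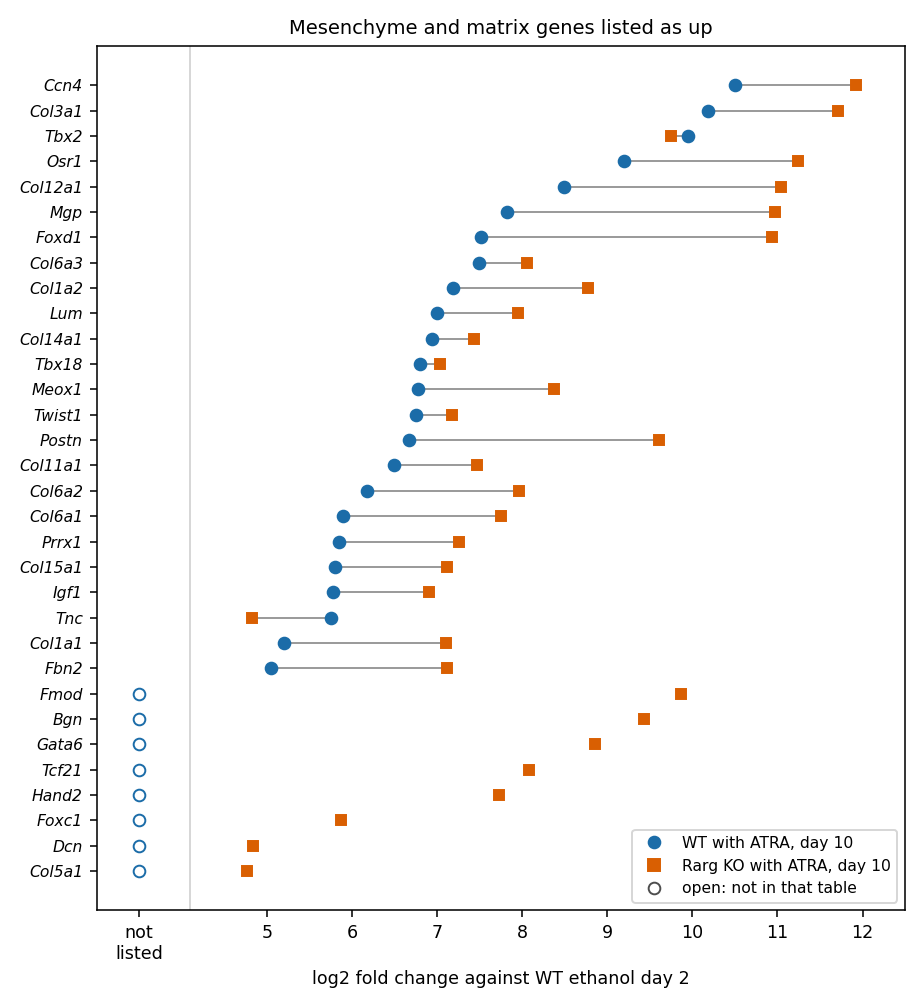
Log2 fold change against WT ethanol day 2 (horizontal axis) of the 32 mesenchyme and matrix genes listed as up, in WT cells (circles) and the Rarg KO line (squares) with ATRA at day 10, with open symbols for genes that a table does not list. Squares lie to the right of circles for 22 of the 24 genes in both tables, and 8 genes are listed for the Rarg KO line and not for WT cells.

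Genes of the list of proneural and neuronal fate factors, called proneural here, showed the opposite pattern. The list holds basic helix-loop-helix and related genes of neuronal differentiation, and also genes of neural progenitors, such as Hes5 and Sox3. Of 18 genes of the list that were up in WT cells, 9 were kept and 9 lost, or 50% each, where 63.3% of all WT up genes were kept and 36.7% lost, and Ebf3, at 5.24, was the gained one. All 9 kept genes had lower values in the Rarg KO line, where 55.6% of all kept up genes did, and their median difference was -1.15. Ptf1a, a factor of inhibitory neuron progenitors, and Sox3, a factor of neural progenitors, were gained as down genes, at -5.72 and -6.02. Both were also down in tables of WT cells. Ptf1a was down in WT cells kept 10 d in ethanol, at -5.83, and in those given BMS961, at -8.12, and Sox3 was down in WT cells with BMS753, at -4.76. Ebf3 was up in WT cells with BMS753, at 4.75.

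Nhlh2, a helix-loop-helix factor of young neurons on chromosome 3 of mm9 from 101814068 to 101819415, had a log2 fold change of 7.86 in WT cells (the authors' p = 0.000416) and 5.20 in the Rarg KO line (p = 0.0088). Hes5, a Notch target of neural progenitors, had 9.40 and 7.50. Dcx, which encodes the microtubule protein doublecortin of migrating neurons, had 8.35 and 6.87. The smallest differences of the group were those of Rbfox1 (5.54 and 5.43), a splicing regulator of neurons, and Myt1l (6.39 and 6.21), a zinc-finger factor. Bhlhe22 had 7.84 and 7.43, Scrt1 7.37 and 6.40, and Elavl4 6.31 and 5.16.

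Among the lost genes, Neurod1, a factor that drives neuronal differentiation, had 8.76 in WT cells (the authors' p = 0.000934) and was not listed in the Rarg KO line with ATRA. Prdm13, a regulator of spinal neuron identity, had 7.96 and Insm1, a zinc-finger factor of newborn neurons, had 7.34. Prdm8, of the same gene family as Prdm13, was also lost (the authors' p = 0.00708 in WT cells). The remaining values in WT cells were 6.83 for Nhlh1, 6.01 for Neurog2, 5.55 for Neurod2, 5.31 for Scrt2 and 5.27 for Sox21. With the RARα agonist BMS753 in place of ATRA, the Rarg KO line had Neurod1 listed at 7.21, Insm1 at 6.79, Nhlh1 at 6.35 and Neurog2 at 5.73. These 4 genes were thus listed with the other ligand, while the other 5 lost genes were in none of the 4 Rarg KO tables. Of these 5, Prdm13 and Scrt2 were listed in WT cells with BMS753, at 7.25 and 4.94, and so were lost with either ligand. Prdm8, Neurod2 and Sox21 were not listed in WT cells with BMS753. In WT cells kept 10 d in ethanol, Sox21 was listed at 5.74 and Insm1 at 5.32.

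Genes of synaptic transmission and the neuronal cytoskeleton that were kept had mostly lower values in the Rarg KO line. In the list of glutamate receptors and transporters, 6 genes were kept and 3 lost, with a median difference of -0.98 and 1 of 6 higher. Over all up genes of WT cells 63.3% were kept, and of the kept ones 44.4% were higher, with a median of -0.30. The share kept was 66.7% for the glutamate list and 62.5% for the list of GABA and glycine genes, near that of all genes. Gria2, an AMPA receptor subunit and the up gene with the highest value in WT cells, had 11.67 there and 10.64 in the Rarg KO line. Slc17a6, the vesicular glutamate transporter, had 9.80 and 8.61. The NMDA receptor subunits Grin1 (7.16 and 7.04) and Grin2b (6.86 and 6.87) were nearly equal in the 2 lines. Of the GABA and glycine genes, 5 were kept, none of them higher, and 3 lost, with a median difference of -1.29. Gad1, the enzyme that makes GABA, had 9.59 and 7.59. The vesicular GABA transporter Slc32a1 was lost, at 6.82 in WT cells.

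All 5 genes of vesicle release were kept with lower values, and their median difference was -0.87. Syt4, a synaptotagmin, had 7.41 and 5.35, and Rph3a, a Rab3 effector, had 8.38 and 7.51. Of the neuronal cytoskeleton and chromatin list, 5 genes were kept, all lower, with a median difference of -1.33, and 2 were lost. Actl6b, a subunit of the neuronal chromatin remodelling complex, had 11.07 and 9.75, and Stmn4, of the stathmin family, had 6.83 and 4.69. The lost Tubb3, neuronal tubulin, was near the edge of the WT table at 4.87. Of the voltage-gated channels up in WT cells, 2 were kept and 5 lost, and Kcna1 and Kcnd2 were gained. Of monoamine, acetylcholine and peptide genes, the granule proteins Scg2 and Chgb were kept, at 7.02 and 6.89 in WT cells and 4.96 each in the Rarg KO line. Sst (somatostatin, 7.55) and Ache (acetylcholinesterase, 6.24) were lost. Axon guidance and adhesion genes had no shared side, with 9 kept, 4 of them higher, 5 lost, 3 gained, and a median difference of -0.02.

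**Figure D3:**
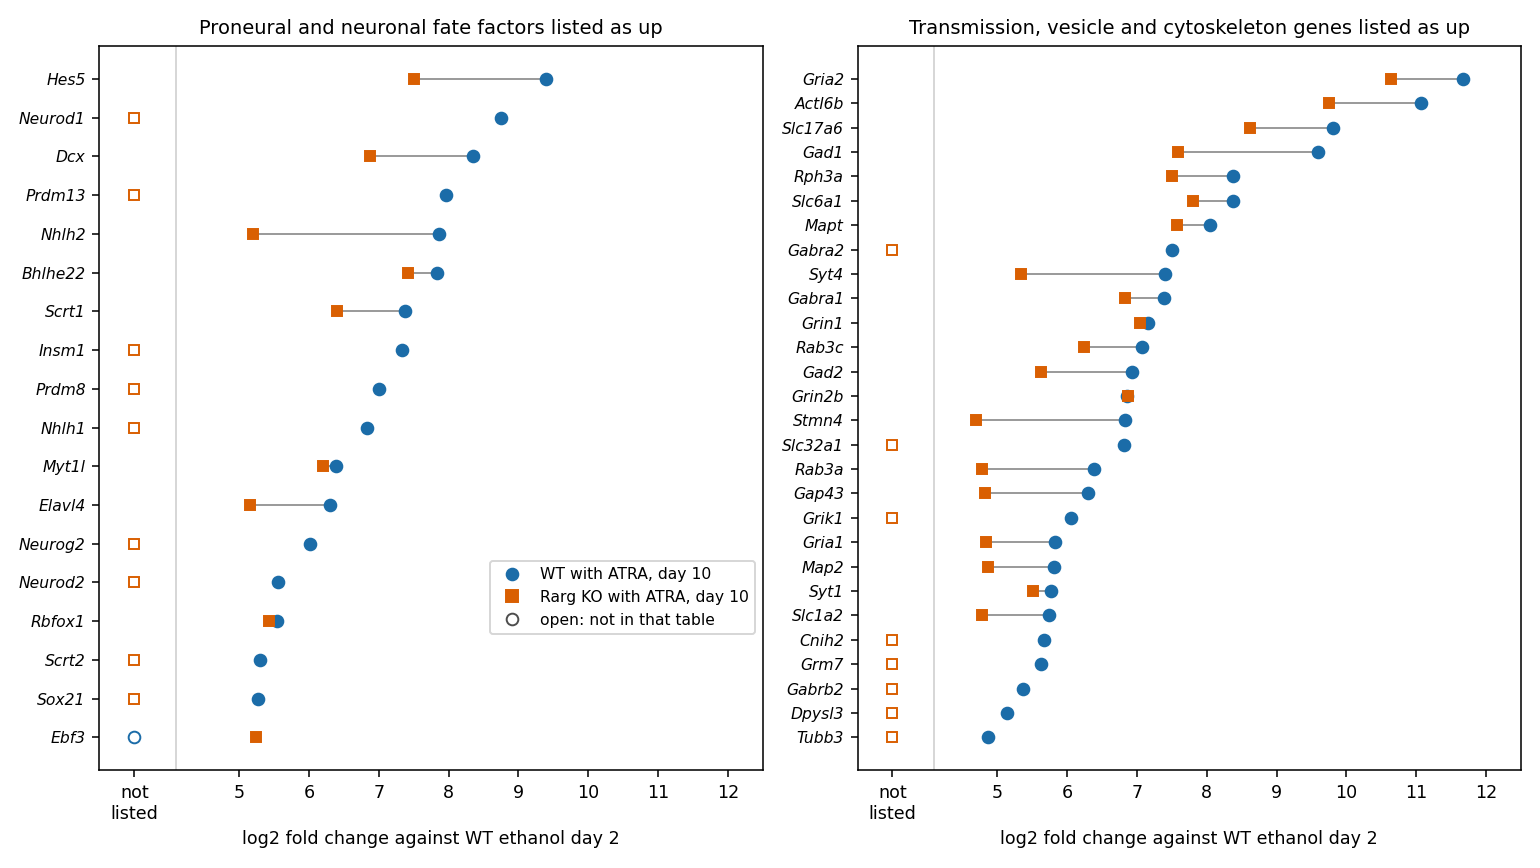
Log2 fold change against WT ethanol day 2 (horizontal axis) of proneural and neuronal fate factors (left) and of glutamate, GABA, vesicle and cytoskeleton genes (right) listed as up, in WT cells (circles) and the Rarg KO line (squares) with ATRA at day 10, with open symbols for genes that a table does not list. The proneural genes drawn from both tables have lower values in the Rarg KO line, and Grin2b, at 6.86 and 6.87, is the one gene of the right panel in both tables whose value is not lower.

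The promoters of 4 genes are shown as reference sequence, for Aldh1a2 and Postn, with higher values in the Rarg KO line, and for Nhlh2 and Neurod1, with a lower value or none. They are RefSeq windows of 300 bases on GRCm38.p6, from 250 bases before to 50 after the start of the gene, and are printed 5′ to 3′ on the strand of the gene. Capitals mark matches on either strand to AGGTCA, the half-site to which RAR and RXR receptors bind, or to CAGCTG, an E-box letter sequence bound by helix-loop-helix factors. They lie at chr9:71215539-71215838 (Aldh1a2, plus strand), chr3:54359017-54359316 (Postn, plus strand), chr3:102009895-102010194 (Nhlh2, plus strand) and chr2:79456587-79456886 (Neurod1, minus strand).
Aldh1a2: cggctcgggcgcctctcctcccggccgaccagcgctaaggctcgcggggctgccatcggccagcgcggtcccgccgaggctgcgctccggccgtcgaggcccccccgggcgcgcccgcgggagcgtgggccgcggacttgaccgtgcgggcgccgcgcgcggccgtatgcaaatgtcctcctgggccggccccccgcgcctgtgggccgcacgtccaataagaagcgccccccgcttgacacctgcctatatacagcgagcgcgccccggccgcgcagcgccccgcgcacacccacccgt
Postn: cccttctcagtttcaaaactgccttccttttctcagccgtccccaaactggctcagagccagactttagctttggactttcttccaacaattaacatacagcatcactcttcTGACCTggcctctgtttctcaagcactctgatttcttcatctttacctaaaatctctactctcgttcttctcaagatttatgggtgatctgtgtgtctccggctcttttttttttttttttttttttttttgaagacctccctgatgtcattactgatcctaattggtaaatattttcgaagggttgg
Nhlh2: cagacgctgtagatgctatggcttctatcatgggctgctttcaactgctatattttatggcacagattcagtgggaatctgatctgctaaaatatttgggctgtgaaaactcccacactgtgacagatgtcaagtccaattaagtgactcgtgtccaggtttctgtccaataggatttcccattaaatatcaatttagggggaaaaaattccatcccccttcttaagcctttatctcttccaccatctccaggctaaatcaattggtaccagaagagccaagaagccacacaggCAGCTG
Neurod1: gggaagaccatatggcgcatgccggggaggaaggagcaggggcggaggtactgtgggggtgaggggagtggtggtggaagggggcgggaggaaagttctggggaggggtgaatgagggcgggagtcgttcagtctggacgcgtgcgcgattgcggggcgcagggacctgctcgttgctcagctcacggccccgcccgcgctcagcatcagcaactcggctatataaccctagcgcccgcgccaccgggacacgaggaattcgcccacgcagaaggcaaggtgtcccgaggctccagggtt
The Postn window held 1 match to AGGTCA, here read on the opposite strand, a second Postn window held none, and the Nhlh2 window held 1 match to CAGCTG. The windows of Aldh1a2 and Neurod1 held no match to either.

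A promoter window was found for 177 of the 250 kept, 107 of the 145 lost and 93 of the 125 gained up genes. AGGTCA occurred in 26 of the kept (14.7%), 8 of the lost (7.48%) and 10 of the gained (10.8%), and in 18.1% of all 27025 genes with a window. CAGCTG occurred in 22.0% of the kept, 25.2% of the lost and 15.1% of the gained, and in 18.3% of all genes. The pair of half-sites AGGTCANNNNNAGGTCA, a spacing known from retinoic acid response elements, was found in the windows of 3 genes in all and of no member. A match of letters is a description of the window and not a binding site.

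Of 27 genes of the retinoid pathway itself, 3 were in either table. For comparison, 247 of the 2208 genes in the study's marker lists were. Aldh1a2, on chromosome 9 of mm9 from 71063596 to 71144050, encodes the enzyme that makes retinoic acid from retinal. Its log2 fold change was 5.75 in WT cells (the authors' p = 0.00678) and 9.10 in the Rarg KO line (p = 0.000107). With BMS753, the values were 5.71 in WT cells and 7.99 in the Rarg KO line. With ATRA, Aldh1a2 was also higher than in WT cells in the Rara KO line, at 9.13, and the Rarb KO line, at 8.43. Crabp1, which encodes a carrier of retinoic acid in the cytoplasm, was lost at 5.21, and it was in none of the 4 Rarg KO tables but in 5 of the 12 WT tables. Dhrs3, a retinal reductase, was gained as a down gene at -5.02 with ATRA. It was down with BMS753 in both lines, at -8.24 in WT cells and -5.42 in the Rarg KO line.

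The Hox genes, which give cells their position along the body axis, were kept as a group. All 11 that were up in WT cells were kept, where 63.3% of all up genes of WT cells were. The Rarg KO value was higher for 7 of the 11, with a median difference of 0.34. Over all kept up genes, 44.4% were higher, with a median of -0.30. Hoxc5 was gained at 5.05, though it was listed in WT cells after 4 d of ATRA, at 8.46, and of BMS753, at 9.06. The largest difference was that of Hoxb3, an anterior gene, with 6.72 in WT cells and 9.44 in the Rarg KO line. The 3 kept genes of the HoxC cluster were all higher, with 7.46 and 9.37 for Hoxc8, 6.82 and 8.06 for Hoxc9, and 7.29 and 7.96 for Hoxc6. The posterior genes of the HoxB cluster were all lower, with 7.82 and 6.15 for Hoxb7, 9.13 and 8.30 for Hoxb8, and 6.04 and 4.99 for Hoxb9. The remaining genes differed by less than 0.5, with 7.26 and 7.13 for Hoxa2, 7.02 and 7.36 for Hoxa3, 9.23 and 9.64 for Hoxa7, and 7.07 and 7.27 for Hoxb4. The Hox cofactor genes Meis1 (8.53 and 9.28) and Meis2 (4.98 and 6.10) were kept.

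Homeodomain factors of neural patterning outside the clusters had a median difference of -0.69, against -0.30 over all kept up genes, with 9 kept up genes, 3 of them higher, and 5 lost. The share kept, 64.3%, was near the 63.3% over all up genes of WT cells. The largest differences were those of Uncx, of the ventral spinal cord and somites, with 7.85 and 5.45, Gbx2, of the anterior hindbrain, with 10.46 and 8.11, and Lhx5, of early interneurons, with 10.89 and 8.69. Msx3, which was not in this list, had 9.95 and 6.79. Irx1, Irx3, Irx5 and Pou3f2 were among the lost genes, at 4.99 to 7.38 in WT cells, and Emx2 was gained at 7.32. Emx2 was also listed in WT cells after 4 d of ATRA, at 6.76. Otx2, a forebrain and midbrain factor that is also expressed in undifferentiated cells, was down in both lines, at -4.73 and -8.37. In WT cells this was the weakest listed down gene.

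Signals of the Wnt, BMP, FGF and Hedgehog families were divided, with 7 kept, 6 of these higher, 6 lost and 7 gained. The share kept was 53.8% and the share gained 50%, against 63.3% and 33.3% over all up genes. Over all kept up genes, 44.4% were higher. Bmp4 had 5.36 in WT cells and 7.86 in the Rarg KO line, and Fgf18 had 7.29 and 9.74. Inhba, a subunit of activin, had 8.48 and 9.98. Bmp4, Fgf18 and Inhba were also listed in WT cells kept 10 d in ethanol, at 6.68, 7.13 and 6.94, and 6 of the 7 kept genes of this list were listed there. The gained genes were Wnt2b, Wnt5a, Wnt6, Wnt11, Rspo3, Bmper and Fgf10, at 4.75 to 6.40, and Fgf15 was gained as a down gene at -5.55. Of these, Wnt6 (4.43) and Fgf15 (-4.83) were also listed in WT cells with ethanol. Wnt11 was up in WT cells with BMS753, at 5.63, and Wnt2b in those with BMS961, at 4.20. The lost genes were Wnt1, Shh, Bmp6, Gdf10 and the Notch ligands Dll1 and Dll4, at 4.98 to 7.09. With BMS753, the Rarg KO line had Wnt1 listed at 7.51, Shh at 7.41, Gdf10 at 6.95 and Bmp6 at 5.73. Dll1 and Dll4 were in none of the 4 Rarg KO tables.

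Genes that mark other cell types were examined in the same way. Of the glial and progenitor list, Fabp7, of radial glia, had 10.42 and 8.22, and Pdgfra, of oligodendrocyte precursors and of mesenchyme, had 9.04 and 11.17. Ngfr (9.13 and 8.73) and Sox9 (6.41 and 6.43) were nearly equal. The muscle genes Tnnt1, Tnni3 and Myl3 were down in both lines. Of endothelium and epithelium, Kdr (6.70) and Krt14 (7.26) were gained as up genes, Cdh1 (-4.95) and Cldn6 (-4.89) were lost as down genes, and Tek was down in both lines. Kdr and Krt14 were also up in WT cells with BMS753, at 5.65 and 7.07.

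The marker lists that the study used for specialized cells did not all follow the neuronal genes above. Neuron markers numbered 86 kept, 43 lost and 26 gained up genes, with a median difference of -0.45. The share kept, 66.7%, and the median were near those of all up genes, 63.3% and -0.30. The medians were -0.58 for astrocyte, -0.97 for glutamatergic and -0.45 for dopaminergic markers. Markers of oligodendrocyte precursors and of GABAergic neurons had positive medians, 0.95 over 23 and 0.96 over 19 kept genes. Of the 23 precursor markers, 9 are also in the mesenchyme and matrix list, among them Col1a1, Col3a1 and Col12a1, and without them the median was 0.14 over 14 genes, 8 of them higher. Of the 19 GABAergic markers, 3 are in that list, and without these the median was 0.84 over 16 genes. Gad1 and Gad2, the enzymes of GABA synthesis, had lower values in the Rarg KO line, as given for Gad1 above, with 6.93 and 5.63 for Gad2.

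Genes of the undifferentiated state were down in both lines. Of 22 pluripotency and germ cell genes down in WT cells, 22 were kept and 0 lost, where 70.9% of all down genes were kept, and Eomes was gained at -5.50. The Rarg KO value was less negative for 10 of the 22, and the median difference was -0.54. Over all kept down genes, 42.1% were less negative, with a median of -0.06. Among the 10, Dnmt3l and Dppa4 shared a difference of 0.459 with other kept down genes, and Lefty2 shared one of 1.03. Pou5f1, which encodes the core pluripotency factor OCT4, had -9.88 and -10.94, and Nanog had -6.16 and -5.87. Tdgf1, the Nodal co-receptor, had -10.62 and -9.45. Tdgf1 had the most negative value of the WT table. The Pou5f1 retrocopy Pou5f1-rs4 had -10.56 and -12.50, and reads of such near-identical copies could have been split by the counting, so its value is uncertain. Klf4 was gained as an up gene, at 5.34. It was also up in WT cells kept 10 d in ethanol, at 3.87, and in those given BMS641 and BMS961, at 3.85.

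The kept down genes with the largest differences had no common role in the lists. Aspg, an asparaginase, had -8.88 in WT cells and -4.82 in the Rarg KO line, and Htr1d, a serotonin receptor, had -8.44 and -5.59. Trp73, of the p53 family, had -8.28 and -5.77, and the clone 1700065O20Rik had -9.10 and -5.52. On the other side were Otx2 and Tdh, a threonine dehydrogenase of embryonic stem cells, which had -7.18 and -10.82. Mup6 had -6.94 and -10.52 and Alox15, a lipoxygenase, -5.17 and -8.14. Some negative values recurred between tables. The WT value of 26 of the 151 down genes was found again, within 0.001, for the same gene in another table, and that of Htr1d in 6 tables in all. The Rarg KO value of Mup6 was also that of WT cells after 4 d of ATRA. The same held for 17 of the 166 down genes of the Rarg KO line, and for 2 up genes in each line. Of the 107 kept down genes, 33 had a difference that another kept down gene shared within 0.001. A difference of 0.459 was shared by 9 genes, among them Dnmt3l, Dppa4 and Tnni3, and one of 0 by 8 genes. Whether these genes had any reads at day 10 cannot be read from the tables.

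The lost up genes with the highest WT values were Fam181a (8.90), Pcdh8 (8.83), Neurod1 (8.76), Gjd2 (8.74), Pfn4 (8.04), Prdm13 (7.96), Fam43b (7.94) and Vwc2 (7.73). Pcdh8 encodes a protocadherin of developing brain and mesoderm, and Gjd2 a connexin of neuronal gap junctions. Pcdh8 and Prdm13 were in none of the 4 Rarg KO tables and in 5 of the 12 WT tables. Fam181a was listed in the Rarg KO line with BMS753, at 7.01. Pfn4 was listed there with BMS641, at 7.66, and with BMS641 and BMS961, at 7.54.

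Among the gained up genes with the highest values were Serpinb7 (10.57), Fmod (9.86), Serpinb10 (9.45), Bgn (9.43), Rtl1 (8.89), Gata6 (8.86) and Emx2os (8.82). Serpinb7 and Serpinb10 encode protease inhibitors, and Rtl1 is an imprinted gene. Of these 7 genes, 6 were listed with BMS753 in the Rarg KO line, with 9.18 for Serpinb7, 9.12 for Fmod and 6.79 for Rtl1. WT cells with BMS753 had 4 of the 7 listed, with 8.80 for Fmod, 7.74 for Bgn, 7.56 for Rtl1 and 6.86 for Serpinb7. For these 4 genes, therefore, listing in the Rarg KO line and not in WT cells was found with ATRA alone. The Rarb KO line with ATRA had Rtl1 listed at 12.39, Emx2os at 8.96 and Serpinb10 at 7.81, besides Fmod, Bgn and Gata6. Serpinb7 was in none of the tables of that line. Emx2os was also listed in WT cells after 4 d of ATRA, at 8.35.

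Down genes that were lost were led by Gjb5 (-8.31), Padi3 (-7.32), Capn3 (-7.31), Scnn1a (-7.27) and Dyrk4 (-7.07), a connexin, a peptidyl arginine deiminase, a calpain, a sodium channel subunit and a kinase. The values of Gjb5, Capn3 and Padi3 recurred for the same gene in 4, 3 and 2 tables in all, so the order of these genes by size carries little information. Those that were gained were led by Ctsc (-9.09), 3830403N18Rik (-8.49), Wsb1 (-8.35), Hemk1 (-7.69) and Slco4a1 (-7.58). Ctsc encodes a lysosomal protease, Wsb1 a ubiquitin ligase subunit, Hemk1 a methyltransferase and Slco4a1 an anion transporter. Slco4a1 was also down in WT cells kept 10 d in ethanol, at -3.44, and in those with BMS753, at -5.15. Ctsc and 3830403N18Rik were also listed in all 4 tables of the Rarb KO line, at -6.80 and -7.51 with ATRA.

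Some of the gained genes were listed in the Rarg KO line whatever the ligand. A rule chosen after the values were seen asked for genes in all 4 Rarg KO tables and in none of the 12 WT tables. It was met by 9 of the 730 genes of the comparison, 8 as down and Ankrd1 as up. No such count is given here for the other lines. Cnrip1, Plin2 and Wsb1 were in no table of another line either. Wsb1, on chromosome 11 of mm9 from 79052874 to 79068173, had log2 fold changes of -8.35 with ATRA, -7.80 with BMS753, -8.21 with BMS641 and -7.05 with BMS641 and BMS961. Cnrip1, of a protein that binds a cannabinoid receptor, had -7.32, -5.96, -6.37 and -6.73 in the same order. Plin2, a coat protein of lipid droplets, had -5.98, -6.04, -4.17 and -3.60. The other 5 down genes, among them 3830403N18Rik, C330024D21Rik, Cdk3 and Xlr, were also listed in tables of the Rara or Rarb KO lines. C330024D21Rik had -7.50 in all 4 Rarg KO tables, and Xlr had -6.76 both with ATRA and with BMS641 and BMS961. Whether these 2 genes had any reads there cannot be read from such repeated values.

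The same WT library was set beside the other knockout lines, so the values of these comparisons are not independent. With ATRA, the Rara KO line kept 218 of the 395 WT up genes, or 55.2%, and the Rarb KO line 179, or 45.3%. Mesenchyme and matrix genes had a median difference of 0.91 in the Rara KO line, with 17 of 23 higher, and of 2.26 in the Rarb KO line, with 21 of 22 higher. Of the 18 proneural genes, the Rara KO line kept 5 and lost 13, and the Rarb KO line kept 0 and lost 18. Both patterns were thus seen in each line that was compared with this WT library, and whether they come from the knockout lines or from the WT library cannot be told apart here.

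The Rarg KO line with BMS753 was compared with WT cells with BMS753, which replaces both ATRA libraries and retains the reference. There, 277 of 383 up genes were kept, or 72.3%, with a median difference of -0.45. Of the mesenchyme and matrix genes, 18 were kept, 7 lost and 4 gained. Of the 18, 7 were higher, and the median difference was -0.29, against -0.45 over all kept up genes. Postn had 7.07 in WT cells and 4.59 in the Rarg KO line with BMS753, and Mgp had 7.88 and was not listed. The higher mesenchyme and matrix values of the Rarg KO line with ATRA were not seen with BMS753. Of the proneural genes, 13 were kept and 3 lost. Of the 13, 1 was higher, and the median difference was -0.80, against the same -0.45. Foxd1 (8.36 and 10.27) and Aldh1a2 were higher in the Rarg KO line with either ligand. This was not particular to that line for Aldh1a2, which was also higher in the Rara and Rarb KO lines with ATRA. Foxd1 with ATRA had 10.11 in the Rara KO line and 7.56 in the Rarb KO line.

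**Figure D4:**
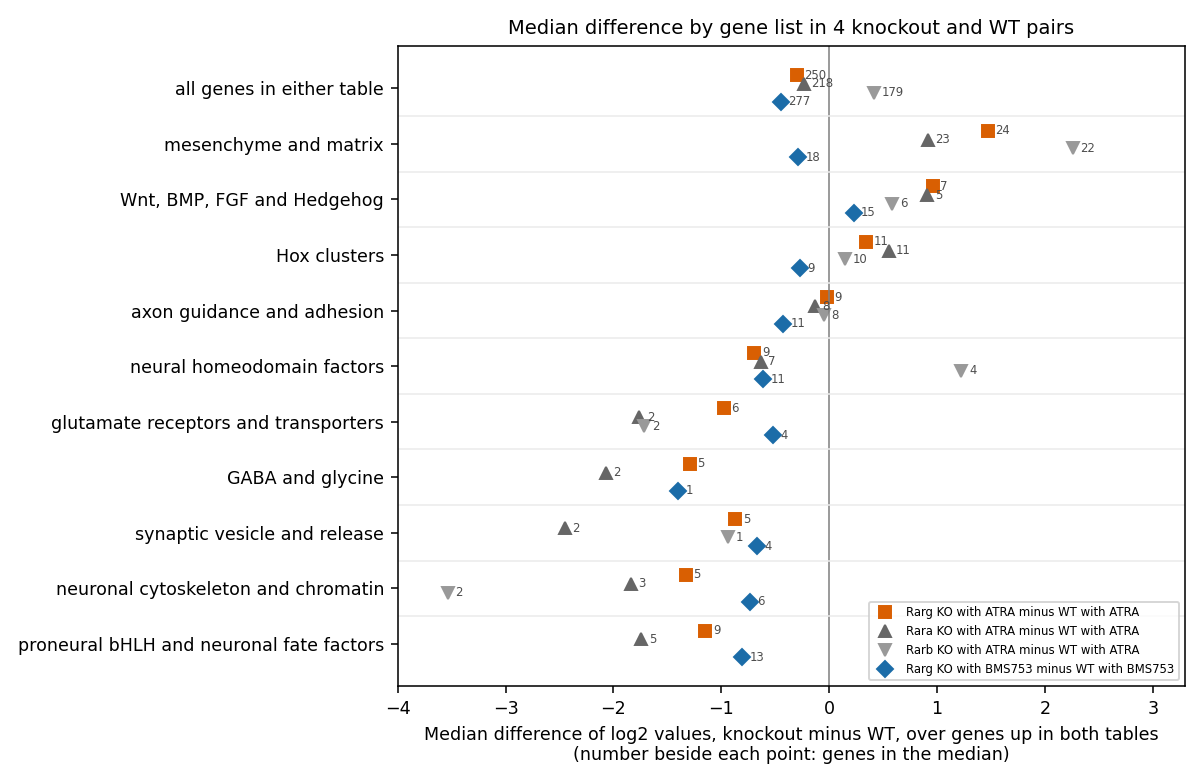
Median difference of log2 fold changes, knockout minus WT (horizontal axis), over genes up in both tables, by gene list (vertical axis), for the Rarg, Rara and Rarb KO lines with ATRA and for the Rarg KO line with BMS753, with the number of genes beside each point. The mesenchyme and matrix median is 1.47, 0.91 and 2.26 in the 3 ATRA pairs, which share the WT ATRA library, and -0.29 in the BMS753 pair.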

How the data were processed

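RNA of P19 cells was sequenced with 1 library per condition. The authors aligned the reads with Bowtie2 2.1.0 to mm9, counted them per gene with featureCounts, and compared each library with that of WT cells after 2 d of ethanol with DESeq2. The deposited tables give log2 fold changes and unadjusted p-values, and 1 of them, from WT cells given ATRA for 2 d, adds the standard error, a score in log2 units per the file headers. How many genes the authors tested is not given in the sources used here. These are the authors' own comparisons, and are used here because the question is the comparison of 2 of them.

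Symbols were matched exactly between the 2 tables, with a log2 fold change over 2 called up and one under -2 called down. Differences are those of the deposited log2 values and rest on separate normalizations. Standard errors were derived from each log2 value and p-value under a normal test. Over the 144 genes with a deposited standard error, the relative difference was 4.27e-08 or less. No test was run, since each condition has 1 library. Shares have 95% Wilson intervals for counting error only.

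The members, the 19 gene lists written by hand and the alternatives were chosen with earlier results of these data known. The 6 marker lists are those of the study. Genes were named by a rule: the 6 highest and 6 lowest differences of kept up genes and the 4 highest and 4 lowest of kept down genes, the 8 largest values of lost and of gained up genes and the 5 largest of lost and of gained down genes, all listed retinoid, Hox, proneural and pluripotency genes, and in other lists the 2 largest WT values and differences. Some genes that the rule names are not reported here or drawn by name, and the counts include them. Further members of the lists and genes outside the rule were named with their values known. Gene positions come from the mm9 annotation, and promoters are RefSeq windows on GRCm38.p6. The scripts ran in Python 3.11.15, with matplotlib 3.10.9 for plots, scipy 1.17.1 for intervals, and pandas 2.3.3 and numpy 2.4.6 for tables.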

Additional observations from a re-analysis of the deposited data

How the results depend on the processing

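Of 57 values recomputed under an alternative, 51 were counted as unchanged and 6 as moved, and the cause of the moves was not tested. These labels do not track the sign of a median near 0. The sign changed for the kept down genes and for the Hox genes, as given below. With a p under 0.001 in both tables, 46.8% of 94 WT up genes were kept, 55.1% of the Rarg KO up genes were gained, 85.7% of 35 WT down genes were kept, and 8 of 74 genes in both tables differed by over 2 log2 units, against 40 of 357. With a difference threshold of 1 in place of 2, 170 genes differed. Centring all differences on their median, -0.18, turned the median of kept down genes from -0.06 to 0.12 and left that of kept up genes at -0.12. The mesenchyme and matrix median lay between 1.36 and 1.65, under alternatives that were added after the data were seen. Under the same alternatives, the proneural value lay between -1.48, that of the 1 gene left at a p under 0.001, and -0.97. The Hox median lay between -0.21, over the 2 genes left at a p under 0.001, and 0.52. No paired analysis was possible because each condition has 1 library and the labels carry no replicate numbers, and for the same reason no library could be left out. Without counts, depth sets no limit that could be computed, and absence from a table is not evidence that a gene did not respond.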
